A study of Mus musculus with 39 samples.

Results

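Islets of mice at pregnancy day 6.5 were compared with islets of non-pregnant mice, which asks what had changed in the islet at this early stage of pregnancy. The comparison rests on the 4 arrays labelled pregnancy day 6.5 and the 4 labelled non-pregnant, 8 of the 39 arrays of the series. All 8 hold total RNA of pancreatic islets from wild type C57bl6/J females. The labels call the 4 arrays of a group biological replicates; age, the method of islet isolation and whether islets of several animals were pooled are not given in the labels. The other arrays hold islets of pregnancy days 3.5, 9.5, 12.5, 15.5 and 18.5, of mice 10 days post partum, and of Pdx1-creLate mice and their control littermates. Values are log2 signals of Affymetrix Mouse Gene 1.0 ST arrays, so a difference of 1 is a doubling. 19938 genes were tested, with 1 probe set per gene symbol, the one with the highest mean over all arrays.

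During pregnancy the islets enlarge as beta cells, the insulin-producing cells, divide and secrete more insulin to meet the resistance of the mother's tissues to the hormone. Prolactin and placental lactogens drive much of this through the prolactin receptor, the kinase JAK2 and the transcription factor STAT5. Islet serotonin, made by the tryptophan hydroxylases Tph1 and Tph2, is known as a later step on that route, and sex steroids and glucocorticoids also act on the islet.

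The 8 arrays correlated with Pearson's r from 0.988 to 0.9949 across genes, which are not independent replicates. Hormone genes that define islets were bright on all 8. Ins2 (insulin) read 12.6 to 12.7 on the day 6.5 arrays. One array stood apart at the top of the scale: the highest value of any probe set was 13.3 on non-pregnant replicate 1 and 14.3 to 14.5 on the other 7. Its 6 genes at a level of 13 to 15 read a median of 0.79 below the mean of the other 7 arrays, and its 27 genes at 12 to 13 read 0.33 below, while the 17265 genes between 4 and 10 differed by a median of -0.01. Markers of acinar cells, which make the digestive enzymes of the surrounding exocrine tissue, averaged 8.48, 8.32, 8.70 and 8.41 on the day 6.5 arrays and 8.14, 8.21, 6.68 and 7.91 on the non-pregnant arrays. The 37 acinar markers were thus lowest on non-pregnant replicate 3, and the 2 groups did not overlap in this mean. None of the 37 was called by limma; 7 (18.9%) had an unadjusted p under 0.05, all higher at day 6.5. The median difference of the 37 was 0.88, or 0.38 without non-pregnant replicate 3. Among all genes tested 6.91% were higher and 4.35% lower at that unadjusted threshold, which is the background for every such count of a list. The part of acinar RNA in the results below was not tested; the main counts are given a second time with this mean held fixed in the model (the acinar covariate).

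**Figure D1:**
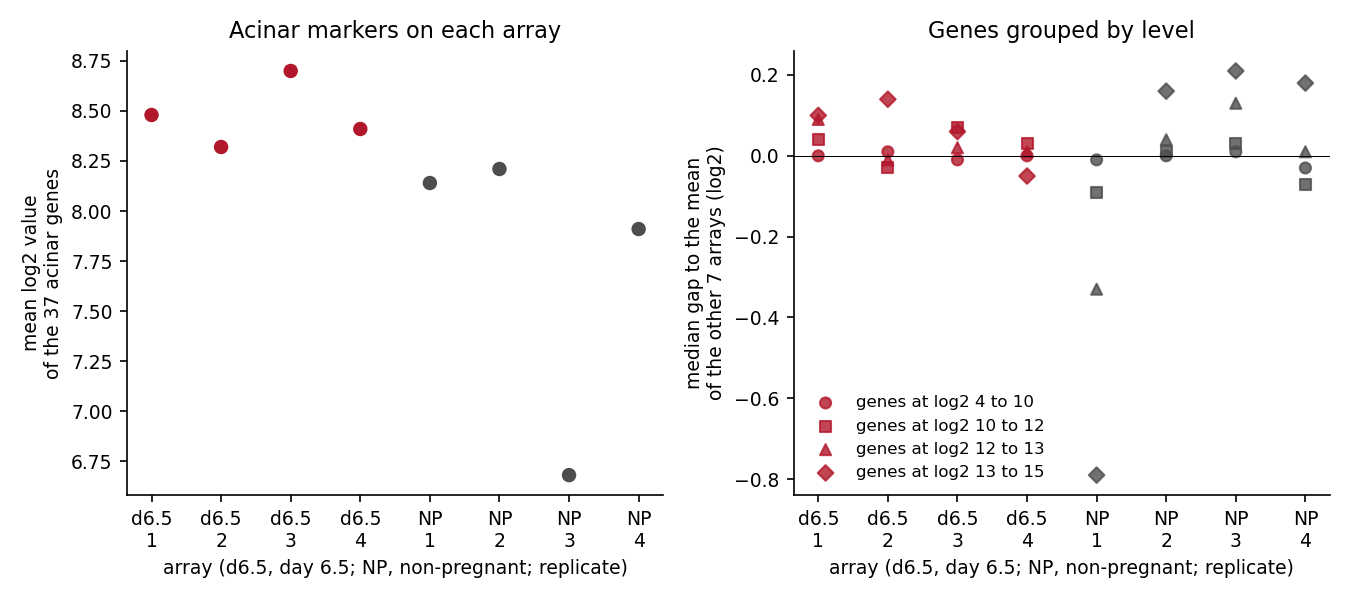
Left, the mean log2 value of the 37 acinar markers on each of the 8 arrays, with day 6.5 in red and non-pregnant (NP) in grey; right, the median gap of each array to the mean of the other 7, for genes grouped by level (marker shapes). Non-pregnant replicate 3 is lowest for acinar markers at 6.68, and non-pregnant replicate 1 is low for the brightest genes only, at -0.79.

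In limma's test 124 genes had an adjusted p under 0.05, which is 0.622% of the genes tested, and these are the genes named as called, risen or fallen. Of these, 100 (0.502%) were higher at day 6.5 and 24 (0.120%) were lower. The changes were small: their median size was 0.48, and 3 genes reached a fold of 2, the rises of Matn2 and Top2a and the fall of Rgs2. In 111 of the 124 the 4 day 6.5 arrays lay entirely on one side of the 4 non-pregnant arrays, 90 above and 21 below. Among all genes tested, 326 (1.64%) lay entirely above and 170 (0.853%) entirely below. The unadjusted p was under 0.05 for 2244 genes, 1377 higher and 867 lower, and most of them did not pass the adjustment. An unadjusted threshold of 0.05 also admits genes that did not change, so the 2244 are not a count of changed genes. With the acinar covariate 103 genes were called. After quantile normalization 170 were called, of which 61.8% were higher, against 80.6% in the values as deposited; the excess of rises over falls is therefore sensitive to the scaling. Leaving out day 6.5 replicate 3 gave 48 calls, leaving out replicate 2 gave 221, and leaving out non-pregnant replicate 2, 3 or 4 gave 67, 75 or 78.

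**Figure D2:**
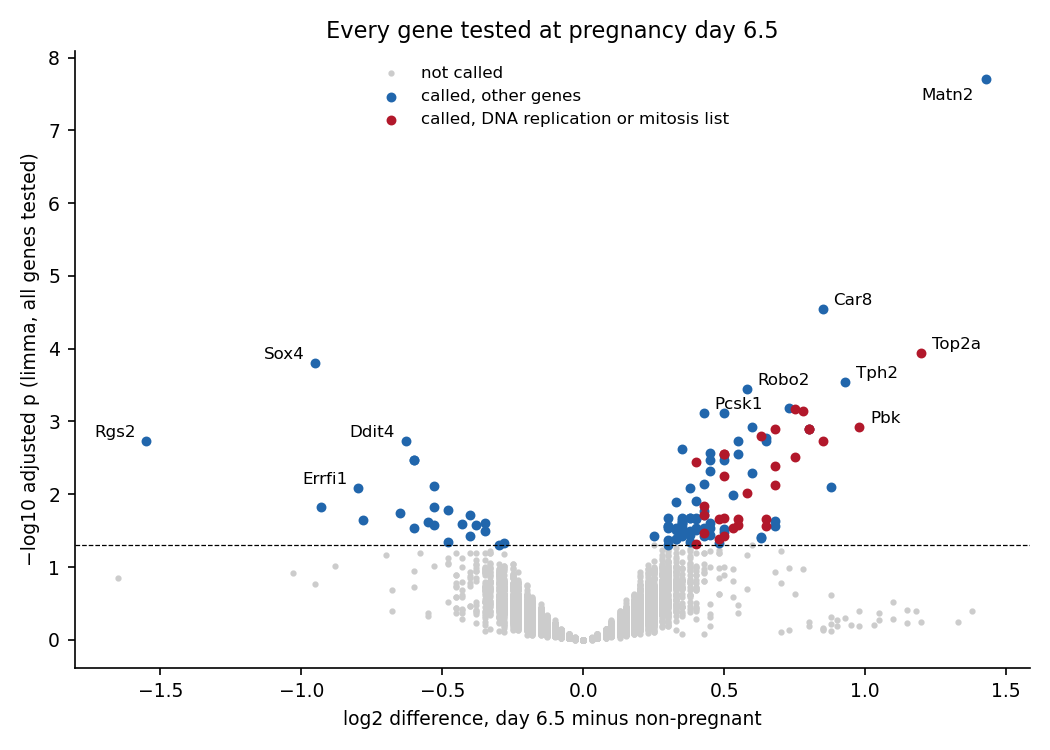
Each point is 1 of the 19938 genes, with the log2 difference between day 6.5 and non-pregnant islets on the x axis and the -log10 of limma's adjusted p on the y axis; the dashed line is the threshold of 0.05. Red points are the 30 called members of the DNA replication and mitosis lists, all to the right of 0, and blue points are the other called genes.

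Genes of cell division made up the largest group of rises. Of 93 measured genes of mitosis and the G2 phase, 24 rose and none fell. Of 56 genes of DNA replication, 6 rose and none fell. The rises were 25.8% of the mitosis list and 10.7% of the replication list, against 0.502% of all genes tested. Together the 30 genes are 30.0% of all rises, while the 2 lists hold 149 of the 19938 genes tested. The median difference was 0.25 for the mitosis list and 0.23 for the replication list, against 0.00 for all genes tested. All 4 day 6.5 arrays lay above all 4 non-pregnant arrays for 39 mitosis genes and 11 replication genes, and for 1.64% of all genes. They lay entirely below for 1 mitosis gene and no replication gene, and for 0.853% of all genes. In bulk islet RNA, more dividing cells and more of these transcripts per dividing cell cannot be told apart.

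Averaged over the mitosis list, the day 6.5 arrays read 5.63, 5.58, 5.67 and 5.54 and the non-pregnant arrays 5.25, 5.31, 5.33 and 5.29. The replication list averaged 6.07, 6.01, 6.04 and 5.93 against 5.79, 5.83, 5.83 and 5.79. In both lists the lowest day 6.5 array was above the highest non-pregnant array. The counts were 24 and 6 with the acinar covariate too. Without day 6.5 replicate 3 they were 14 and 2, and without non-pregnant replicate 4 the replication list had 3. In a fit of the 8 arrays alone they were 16 and 1.

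Top2a, the topoisomerase that untangles sister chromosomes (chr11:98992947-99024199 in GRCm38.p6), read 6.8, 6.5, 7.1 and 6.8 at day 6.5 and 5.5, 5.8, 5.7 and 5.4 in non-pregnant islets. All day 6.5 values were at least 0.7 above the highest non-pregnant value. The difference was 1.20 ± 0.16 (SE), a 2.30-fold rise (limma adjusted p = 0.000114). A second, dimmer probe set of Top2a differed by -0.13 ± 0.12 and was not called.

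Pbk, a mitotic kinase, read 6.6, 6.5, 6.7 and 6.5 against 5.4, 5.5, 5.9 and 5.6, without overlap, and rose by 0.98 ± 0.16. Mki67, the standard marker of cycling cells, read 6.4, 6.2, 6.6 and 6.4 against 5.4, 5.5, 5.8 and 5.9. Its groups did not overlap either, and it rose by 0.75 ± 0.14, a 1.68-fold change (limma adjusted p = 0.00312). Kif11, the motor that pushes the spindle poles apart, read 5.4, 5.3, 5.6 and 5.0 against 4.3, 4.9, 4.5 and 4.2, a difference of 0.85 ± 0.15.

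Other risen genes of the mitosis list are set here beside related members that did not pass the test, grouped after their values were seen. Among regulators of entry into mitosis, cyclin A2 (Ccna2) rose by 0.78 ± 0.12, the kinase Plk1 by 0.50 ± 0.09 and the kinase Nek2 by 0.53 ± 0.12. The central mitotic kinase Cdk1 and cyclin B2 (Ccnb2) each differed by 0.18 ± 0.14 and were not called (adjusted p = 0.706 and 0.707), nor were the phosphatases Cdc25b (0.25) and Cdc25c (0.13). Of the spindle checkpoint, Bub1 (0.55), Bub1b (0.43) and Mad2l1 (0.55) rose, and Ttk (0.23) was not called. In the Ndc80 complex, which ties the kinetochore to microtubules, Nuf2 (0.58) and Spc25 (0.48) rose, while Ndc80 and Spc24 differed by 0.13 each and were not called. Of the centromere proteins, Cenpf and Cenpi rose by 0.50 each, and Cenpa (0.23), Cenpe (0.40), Cenpk (0.15) and Cenpn (0.20) were not called. No member of the chromosomal passenger complex was called: Aurkb differed by 0.13, Birc5 by 0.15, Incenp by 0.20 and Cdca8 by 0.00. Of cytokinesis, Prc1 (0.80), Anln (0.75), Ect2 (0.68) and Racgap1 (0.43) rose, and Kif23 (0.43), Kif20a (0.33) and Cit (0.03) were not called. Of the condensin complexes, Ncapg2 (0.68), Smc2 (0.50) and Ncapd2 (0.40) rose, and Smc4 (0.38), Ncapg (0.40) and Ncaph (0.28) were not called. Of the genes that end mitosis, Cdc20 (0.13), Ube2c (0.25), Espl1 (0.15) and Pttg1 (0.00) were not called. All of these are log2 differences. Among those that rose, the day 6.5 and non-pregnant arrays overlapped at a shared or crossed value for Bub1b, Spc25 and Smc2. Foxm1, a transcription factor of the mitotic programme, read 5.7, 5.5, 5.7 and 5.5 against 5.3, 5.3, 5.2 and 5.3; its groups did not overlap, but its difference of 0.33 ± 0.10 was not called (adjusted p = 0.125).

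Among the replication genes, Mcm2 read 7.4, 7.3, 7.3 and 7.3 at day 6.5 and 7.0, 6.9, 6.9 and 6.8 in non-pregnant islets, a rise of 0.43 ± 0.09. Mcm3 rose by 0.68 ± 0.13 and Mcm4 by 0.50 ± 0.10; with Mcm2 they belong to the helicase that opens the double strand. On day 6.5 replicate 4 Mcm3 read 5.8, below the highest non-pregnant value of 5.9. Rrm1, a subunit of the enzyme that makes deoxyribonucleotides, rose by 0.48 ± 0.10, and the flap nuclease Fen1 by 0.40 ± 0.07. Hells, a chromatin remodeller, rose by 0.65 ± 0.15. Mcm6 differed by 0.48 ± 0.12 and Cdc45 by 0.30 ± 0.08 without being called (adjusted p = 0.0576 and 0.0613). Pcna, the sliding clamp, differed by 0.30 ± 0.10 (adjusted p = 0.202), and Tk1, thymidine kinase, by -0.28 ± 0.09 (adjusted p = 0.203).

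**Figure D3:**
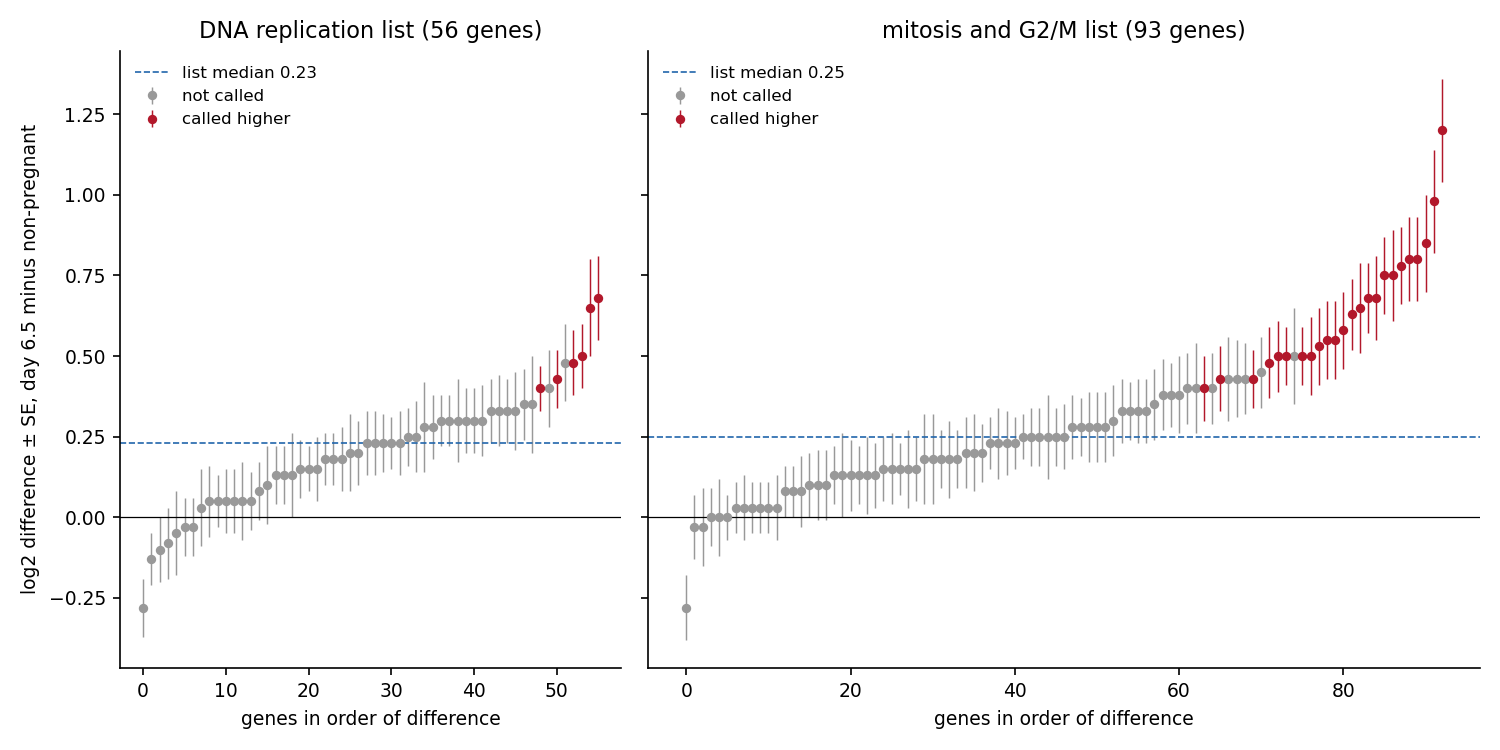
Log2 difference between day 6.5 and non-pregnant islets, with its standard error from limma, for the 56 measured genes of the DNA replication list and the 93 of the mitosis and G2/M list, each in order of size. Called genes are red (6 and 24), the dashed lines are the list medians of 0.23 and 0.25, and most genes that were not called also lie above 0.

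Another 11 called rises outside both lists are known from replication or division; they were picked after their values were seen. They include Cip2a, an inhibitor of a phosphatase that restrains division (0.80 ± 0.13), Knstrn of the kinetochore (0.68 ± 0.15), Stmn1, which destabilises microtubules (0.60 ± 0.11), and the histone chaperone Asf1b (0.50 ± 0.12). Of 29 genes of cell cycle entry and arrest, 1 rose (3.45%, against 0.502% of all genes) and 1 fell. In this list 6 genes (20.7%) were higher and 3 (10.3%) lower at an unadjusted p under 0.05, against 6.91% and 4.35% of all genes. Rbl1, the pocket protein p107 that is itself made in cycling cells, read 6.8, 6.6, 7.0 and 6.7 against 6.4, 6.3, 6.2 and 6.0 and rose by 0.55 ± 0.10. Btg1, which restrains proliferation, read 10.4, 10.2, 10.1 and 10.1 against 10.6, 10.9, 10.8 and 10.6 and fell by 0.53 on the log2 scale. The D cyclins, which carry the growth signal into the cycle, were not called: Ccnd1 differed by 0.10 ± 0.10 and Ccnd2 by 0.18 ± 0.07. Men1, whose product menin restrains beta-cell growth, differed by 0.03 ± 0.08.

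The promoters of the genes that moved together are shown because genes of mitosis and of replication are known for different short promoter elements. RefSeq promoters on GRCm38.p6 run from 250 bases before to 50 after each gene's start. They were searched on both strands for CCAAT (the box bound by NF-Y), TTTGAA (the cell cycle homology region, CHR), the E2F words TTTCCCGC, TTTGGCGC, TTTCGCGC and TTTGCCGC, and the STAT word TTCNNNGAA. For each list the 3 called members with the largest rise and a promoter in the table are printed on the gene's own strand, from 5′ to 3′, with every match in capitals; no match of one motif overlapped one of another in them. The 3 mitosis genes are Top2a (chr11:99024140-99024439, minus strand), Kif11 (chr19:37376132-37376431, plus strand) and Prc1 (chr7:80294201-80294500, plus strand, the first of its 2 promoters in the table).
Top2a: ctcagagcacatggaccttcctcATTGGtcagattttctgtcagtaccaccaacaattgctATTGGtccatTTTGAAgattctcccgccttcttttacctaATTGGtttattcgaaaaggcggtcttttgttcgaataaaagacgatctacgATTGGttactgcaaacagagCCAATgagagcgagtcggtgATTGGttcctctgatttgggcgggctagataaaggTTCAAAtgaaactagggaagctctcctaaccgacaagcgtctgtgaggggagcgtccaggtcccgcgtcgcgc
Kif11: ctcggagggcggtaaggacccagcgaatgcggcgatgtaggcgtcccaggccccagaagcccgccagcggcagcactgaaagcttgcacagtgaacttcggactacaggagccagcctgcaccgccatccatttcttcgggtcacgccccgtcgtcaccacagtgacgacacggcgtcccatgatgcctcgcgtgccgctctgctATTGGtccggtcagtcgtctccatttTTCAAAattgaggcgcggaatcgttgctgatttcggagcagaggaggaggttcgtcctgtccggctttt
Prc1: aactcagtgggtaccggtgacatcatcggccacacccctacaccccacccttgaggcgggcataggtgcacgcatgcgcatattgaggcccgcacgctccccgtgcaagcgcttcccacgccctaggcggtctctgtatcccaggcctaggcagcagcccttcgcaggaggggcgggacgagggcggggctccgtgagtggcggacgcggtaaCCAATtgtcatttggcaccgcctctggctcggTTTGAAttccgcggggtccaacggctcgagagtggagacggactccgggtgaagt

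The 3 replication genes are Mcm3 (chr1:20820263-20820562, minus strand), Hells (chr19:38930740-38931039, plus strand) and Rrm1 (chr7:102441445-102441744, plus strand).
Mcm3: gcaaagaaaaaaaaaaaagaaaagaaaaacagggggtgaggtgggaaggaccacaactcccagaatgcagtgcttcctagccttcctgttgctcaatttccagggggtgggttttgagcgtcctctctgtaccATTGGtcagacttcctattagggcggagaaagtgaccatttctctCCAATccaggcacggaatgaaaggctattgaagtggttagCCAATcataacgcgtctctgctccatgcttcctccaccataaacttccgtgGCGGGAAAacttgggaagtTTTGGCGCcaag
Hells: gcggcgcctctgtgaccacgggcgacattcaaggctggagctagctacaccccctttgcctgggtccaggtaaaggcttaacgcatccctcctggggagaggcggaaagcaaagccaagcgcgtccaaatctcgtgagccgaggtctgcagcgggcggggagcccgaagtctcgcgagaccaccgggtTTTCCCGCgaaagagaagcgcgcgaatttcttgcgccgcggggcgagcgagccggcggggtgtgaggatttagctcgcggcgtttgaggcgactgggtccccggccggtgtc
Rrm1: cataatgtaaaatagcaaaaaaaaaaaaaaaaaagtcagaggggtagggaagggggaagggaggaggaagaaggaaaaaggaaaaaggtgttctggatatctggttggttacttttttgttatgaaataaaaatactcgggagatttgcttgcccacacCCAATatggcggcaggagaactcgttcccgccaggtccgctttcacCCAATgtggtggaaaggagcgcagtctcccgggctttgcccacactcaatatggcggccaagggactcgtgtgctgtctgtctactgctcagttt

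The Top2a promoter holds 6 CCAAT boxes and 2 CHR words, and those of Kif11 and Prc1 hold 1 of each. The Mcm3 promoter holds 3 CCAAT boxes and 2 E2F words, Hells 1 E2F word, and Rrm1 2 CCAAT boxes. Over the 82 promoters of the mitosis list, 62.2% held a CHR word and 73.2% a CCAAT box, against 17.9% and 37.4% of all 32851 promoters. For the 22 promoters of mitosis genes that rose the shares were 77.3% and 81.8%. An E2F word stood in 32.0% of the 50 promoters of the replication list and in 2.26% of all promoters. The STAT word stood in 6.67% of the 105 promoters of called rises and in 8.30% of all. Over the 19177 promoters of genes tested, 14.8% held a CHR word, 37.4% a CCAAT box, 2.99% an E2F word and 7.66% the STAT word. All of these are matches of letters and show no binding.

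The largest rise of all was that of Matn2, which encodes matrilin-2, a protein of the extracellular matrix (chr15:34306681-34436242). It read 9.0, 8.9, 9.1 and 9.0 at day 6.5 and 7.5, 7.5, 7.4 and 7.9 in non-pregnant islets. Every day 6.5 array was at least 1.0 above every non-pregnant array. The difference was 1.43 ± 0.12, a 2.69-fold rise (limma adjusted p = 1.96e-08), and it was called under all 20 alternative settings.

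Of the serotonin genes, Tph2 rose and Tph1 did not pass the test. Tph2 (chr10:115078641-115185022) read 6.3, 5.6, 5.8 and 5.9 against 5.1, 4.8, 5.1 and 4.9, without overlap. It rose by 0.93 ± 0.13, a 1.90-fold change (limma adjusted p = 0.000291). Tph1 (chr7:46644641-46672537) read 5.3, 5.0, 5.1 and 5.5 against 4.0, 4.3, 4.6 and 4.9. Its groups did not overlap, but the non-pregnant arrays spread over 0.9, and the difference of 0.78 ± 0.22 had an adjusted p of 0.105. Tph2 was the only 1 of 25 serotonin genes called (4.0%, against 0.502% of all genes called higher), and the list median was 0.03. In this list 6 genes (24.0%) were higher and 1 (4.0%) lower at an unadjusted p under 0.05, against 6.91% and 4.35% of all genes. Ddc, the next enzyme of serotonin synthesis, differed by 0.28 ± 0.08 (adjusted p = 0.118), and Slc18a1, a vesicle transporter, by 0.20 ± 0.10 (adjusted p = 0.435).

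The Tph2 promoter (chr10:115184973-115185272, minus strand) is shown beside the cell cycle promoters and holds none of the motifs searched.
Tph2: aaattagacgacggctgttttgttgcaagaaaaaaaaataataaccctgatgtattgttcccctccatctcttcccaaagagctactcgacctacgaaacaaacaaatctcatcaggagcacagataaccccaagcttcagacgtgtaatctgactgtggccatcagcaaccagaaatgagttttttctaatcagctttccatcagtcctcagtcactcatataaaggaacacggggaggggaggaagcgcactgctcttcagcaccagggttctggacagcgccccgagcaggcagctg

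Of 31 genes of lactogen signalling, STAT5 targets and genes known to respond to pregnancy in islets, 3 rose and none fell. The rises were 9.68% of the list, against 0.502% of all genes, and the list median was 0.10. The 3 are Matn2, Neb and Ivd, which were put in the list with earlier results of these arrays known, so their direction is no independent evidence. Neb, the thin-filament protein nebulin, read 6.0, 5.8, 6.1 and 6.1 against 5.2, 5.3, 5.4 and 5.5 and rose by 0.65 ± 0.11. Ivd, which breaks down leucine in mitochondria, read 10.5, 10.2, 10.2 and 10.1 against 9.7, 9.6, 9.5 and 9.8 and rose by 0.60 ± 0.10. Neither gene's groups overlapped. In the whole list 12 genes (38.7%) were higher and 1 (3.23%) was lower at an unadjusted p under 0.05. Among all genes the shares were 6.91% and 4.35%. The whole list was chosen with earlier results of these data known, so its shares are no independent evidence either.

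None of the 4 feedback inhibitors of cytokine signalling in the list, Cish, Socs1, Socs2 and Socs3, was called. Cish read 9.5, 9.3, 9.5 and 8.2 at day 6.5 and 8.7, 8.7, 8.5 and 7.9 in non-pregnant islets. Day 6.5 replicate 4 alone lay within the non-pregnant range, and the difference was 0.68 ± 0.20 (adjusted p = 0.117). Socs2 read 9.1, 8.8, 9.2 and 8.5 against 8.6, 8.5, 8.6 and 8.3, a difference of 0.40 ± 0.11 (adjusted p = 0.104). A second, dimmer probe set of Socs2 differed by 0.4 ± 0.1 and was not called either (limma adjusted p = 0.0602, every probe set tested on its own). Socs1 differed by 0.03 ± 0.08 and Socs3 by 0.13 ± 0.08. Myc, a growth regulator, read 7.8, 7.7, 7.6 and 6.4 against 6.8, 7.2, 7.4 and 6.3; it differed by 0.45 ± 0.22 (adjusted p = 0.437). Day 6.5 replicate 4 was the lowest of its group for Cish, Socs2 and Myc, so leaving it out has to raise their differences. With 1 array left out at a time, Cish ranged from 0.49 to 0.98, Socs2 from 0.30 to 0.53 and Myc from 0.24 to 0.78; each had its highest value, and its only call among the 8 omissions, without that array.

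Cldn8, a tight junction claudin, read 6.6, 6.0, 6.2 and 6.3 against 5.3, 5.6, 5.4 and 6.0, so that the groups met at 6.0. Its difference of 0.70 ± 0.18 just missed the threshold (adjusted p = 0.0597). It was called under 6 of 20 alternatives. Lrrc55, a subunit of potassium channels, differed by 0.35 ± 0.17 (adjusted p = 0.449). Tnfrsf11b, the decoy receptor osteoprotegerin, differed by 0.28 ± 0.16 (adjusted p = 0.556). Bcl6, a transcriptional repressor, differed by -0.15 ± 0.14 (adjusted p = 0.776). Prlr itself is not analysed here.

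Several of the other large rises concern signalling and the cell surface. Car8, a relative of the carbonic anhydrases that binds the inositol trisphosphate receptor, read 8.9, 8.3, 8.7 and 8.9 at day 6.5 and 7.8, 7.8, 7.8 and 8.0 in non-pregnant islets. It rose by 0.85 ± 0.10 without overlap (limma adjusted p = 2.89e-05). Robo2, a receptor for Slit guidance proteins, read 9.9, 9.7, 10.3 and 10.0 against 9.4 on every non-pregnant array and rose by 0.58 ± 0.08. Prkd1, protein kinase D1, rose by 0.65 ± 0.11, the water channel Aqp4 by 0.55 ± 0.09, and Fmo4, a flavin monooxygenase, by 0.73 ± 0.11. D17H6S56E-5, an entry on chromosome 17, read 7.6, 7.2, 7.3 and 6.7 against 6.1, 6.4, 6.3 and 6.5 and rose by 0.88 ± 0.17.

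Ddx60, a helicase induced by interferon, read 6.3, 6.1, 6.4 and 6.1 against 5.7, 5.5, 5.6 and 5.4 and rose by 0.68 ± 0.15. None of the 26 measured genes of the interferon list was called by limma. In that list 9 genes (34.6%, against 6.91% of all genes) had an unadjusted p under 0.05 and were higher at day 6.5, none was lower at that threshold, and the median was 0.19. Day 6.5 replicate 4 had the highest list mean, 6.60 against 6.30 to 6.43 on the other 3 and 6.19 to 6.22 on the non-pregnant arrays. Ifit1, an interferon-induced antiviral protein, read 5.7, 5.0, 5.1 and 6.2 against 4.9, 4.7, 4.7 and 4.9, a difference of 0.70 ± 0.22 (adjusted p = 0.168).

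Genes of the mature beta cell differed little. Of 30 genes of insulin, the secretory granule and glucose sensing, 2 rose (6.67%, against 0.502% of all genes) and none fell, with a median of 0.04. In this list 3 genes (10.0%) were higher and none lower at an unadjusted p under 0.05, against 6.91% and 4.35% of all genes. Pcsk1, the convertase that cuts proinsulin, read 11.8, 11.6, 11.8 and 11.8 against 11.2, 11.3, 11.4 and 11.4 and rose by 0.43 ± 0.07 (limma adjusted p = 0.000772). Chgb, the granule protein chromogranin B, read 11.5, 11.4, 11.2 and 11.3 against 10.8, 11.0, 11.0 and 11.1 and rose by 0.38 ± 0.08. For both genes non-pregnant replicate 1, the array with low bright genes, was the lowest of the 8. Without it the differences were 0.38 for Pcsk1, which was still called, and 0.32 for Chgb, which was not (adjusted p = 0.0948).

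Ins2 read 12.7, 12.6, 12.6 and 12.6 at day 6.5 and 11.9, 12.7, 12.7 and 12.7 in non-pregnant islets. Its difference of 0.13 ± 0.10 rested on non-pregnant replicate 1 and was -0.08 without it. The same array set the sign for 2 other hormones: glucagon (Gcg) differed by 0.15 ± 0.12, or -0.10 without it, and somatostatin (Sst) by 0.15 ± 0.11, or -0.05. Pancreatic polypeptide (Ppy) differed by -0.18 ± 0.17; it was -0.28 without non-pregnant replicate 1 and 0.08 without day 6.5 replicate 4. None of the 14 measured genes of other islet endocrine cells was called by limma, and none had an unadjusted p under 0.05. The glucose transporter Slc2a2 differed by 0.10 ± 0.07, Ucn3, a marker of mature beta cells, by 0.08 ± 0.08, and the transcription factors Pdx1 and Mafa by 0.15 ± 0.09 and 0.13 ± 0.12. None of 19 genes normally kept low in beta cells and none of 24 imprinted genes was called by limma; at an unadjusted p under 0.05, 2 of the former (10.5%) were lower, against 4.35% of all genes, and 2 of the latter (8.33%) were higher, close to the 6.91% of all genes.

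Lists for the machinery of protein export and metabolism held 1 call each or none. Of 33 endoplasmic reticulum chaperones and folding factors, Edem1, which marks misfolded proteins for disposal, rose by 0.45 ± 0.08; it read 9.7, 9.5, 9.7 and 9.9 against 9.4, 9.2, 9.2 and 9.2. Edem1 was the only call, 3.03% of its list, against 0.502% of all genes called higher. In this list 10 genes (30.3%) were higher and 1 (3.03%) lower at an unadjusted p under 0.05, against 6.91% and 4.35% of all genes. None of 35 genes of translocation and secretory transport, 25 of cholesterol synthesis and transport, or 35 of oxidative phosphorylation was called by limma. At an unadjusted p under 0.05, 11.4%, 12% and 2.86% of these lists (4, 3 and 1 genes) were higher, against 6.91% of all genes, and 2.86%, 4.0% and 17.1% (1, 1 and 6 genes) were lower, against 4.35%. Of 29 genes that break down fatty acids and branched-chain amino acids, Ivd alone was called (3.45%, against 0.502% of all genes called higher). In this list 2 genes (6.9%) were higher and 5 (17.2%) lower at an unadjusted p under 0.05.

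The largest fall was Rgs2, a brake on signalling by receptors coupled to Gq proteins (chr1:143999338-144004149). It read 8.7, 7.6, 7.9 and 7.5 at day 6.5 and 8.8, 9.9, 10.0 and 9.2 in non-pregnant islets. The groups lay 0.1 apart at their nearest values and each spread over more than 1.0. It fell by 1.55 on the log2 scale (SE 0.27), 2.93-fold lower at day 6.5 (limma adjusted p = 0.00185). Rgs2 was the only 1 of 20 measured members of the Rgs family called, where 0.120% of all genes fell.

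Sox4, a transcription factor of endocrine development (chr13:28948919-28953699), read 7.4, 7.4, 7.3 and 7.1 against 7.9, 8.4, 8.6 and 8.1. All day 6.5 values were at least 0.5 below the lowest non-pregnant value, and it fell by 0.95 on the log2 scale (SE 0.13; limma adjusted p = 0.000156). It was the only 1 of 22 beta-cell transcription factors called, where 0.120% of all genes fell. In that list 4 genes (18.2%) were higher and 2 (9.09%) lower at an unadjusted p under 0.05, against 6.91% and 4.35% of all genes. Errfi1, a feedback inhibitor of the epidermal growth factor receptor, read 8.9, 8.6, 8.7 and 8.4 against 9.4, 9.8, 9.6 and 9.0 and fell by 0.80 on the log2 scale (SE 0.16).

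Ddit4 and Fkbp5, which glucocorticoids or stress induce, were among the falls. Ddit4, an inhibitor of the growth kinase mTORC1, read 6.8, 6.6, 6.5 and 6.7 against 7.1, 7.4, 7.5 and 7.1, a difference of -0.63 ± 0.11. Fkbp5, a co-chaperone of the glucocorticoid receptor, read 8.6, 8.5, 8.2 and 8.6 against 8.7, 9.0, 9.4 and 9.2, a difference of -0.60 ± 0.14. Both fell without overlap between the groups, and Fkbp5 was called under 12 of 20 alternatives. Each was the only call in its list, where 0.120% of all genes fell. The lists were 17 genes of steroid receptors and targets (median 0.00) and 21 of the integrated stress response (median -0.03). At an unadjusted p under 0.05, 4 steroid genes (23.5%) were lower and none higher, though 8 differences in the list were positive and 8 negative. Of the stress genes 3 (14.3%) were lower and 1 (4.76%) higher, against 4.35% and 6.91% of all genes. The oestrogen receptor Esr1 differed by 0.03 ± 0.09 and the progesterone receptor Pgr by 0.00 ± 0.09.

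The clock repressor Cry2 read 9.2, 8.8, 9.0 and 8.9 against 9.3, 9.6, 9.7 and 9.5, a difference of -0.55 ± 0.12. It was the only 1 of 17 clock genes called, where 0.120% of all genes fell. In the clock list 3 genes (17.6%) were higher and 4 (23.5%) lower at an unadjusted p under 0.05, against 6.91% and 4.35% of all genes. Rgs2 was the only 1 of 41 immediate-early and stress genes called, against the same 0.120%. Of these 41, 10 (24.4%) were lower and 2 (4.88%) higher at an unadjusted p under 0.05, against 4.35% and 6.91% of all genes. The phosphatase Dusp1 differed by -0.43 ± 0.12 (adjusted p = 0.101) and the transcription factor Junb by -0.33 ± 0.11 (adjusted p = 0.189). The other large falls were Rmrp, the RNA of a ribonuclease (-0.78 ± 0.17), Mdm1, a centriole protein (-0.65 ± 0.14), Piga, which starts the synthesis of membrane anchors (-0.60 ± 0.11), and Bambi, a decoy receptor of the TGF-beta family (-0.60 ± 0.11). Depp1 differed by -0.93 ± 0.19 and was called, but its groups overlapped.

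**Figure D4:**
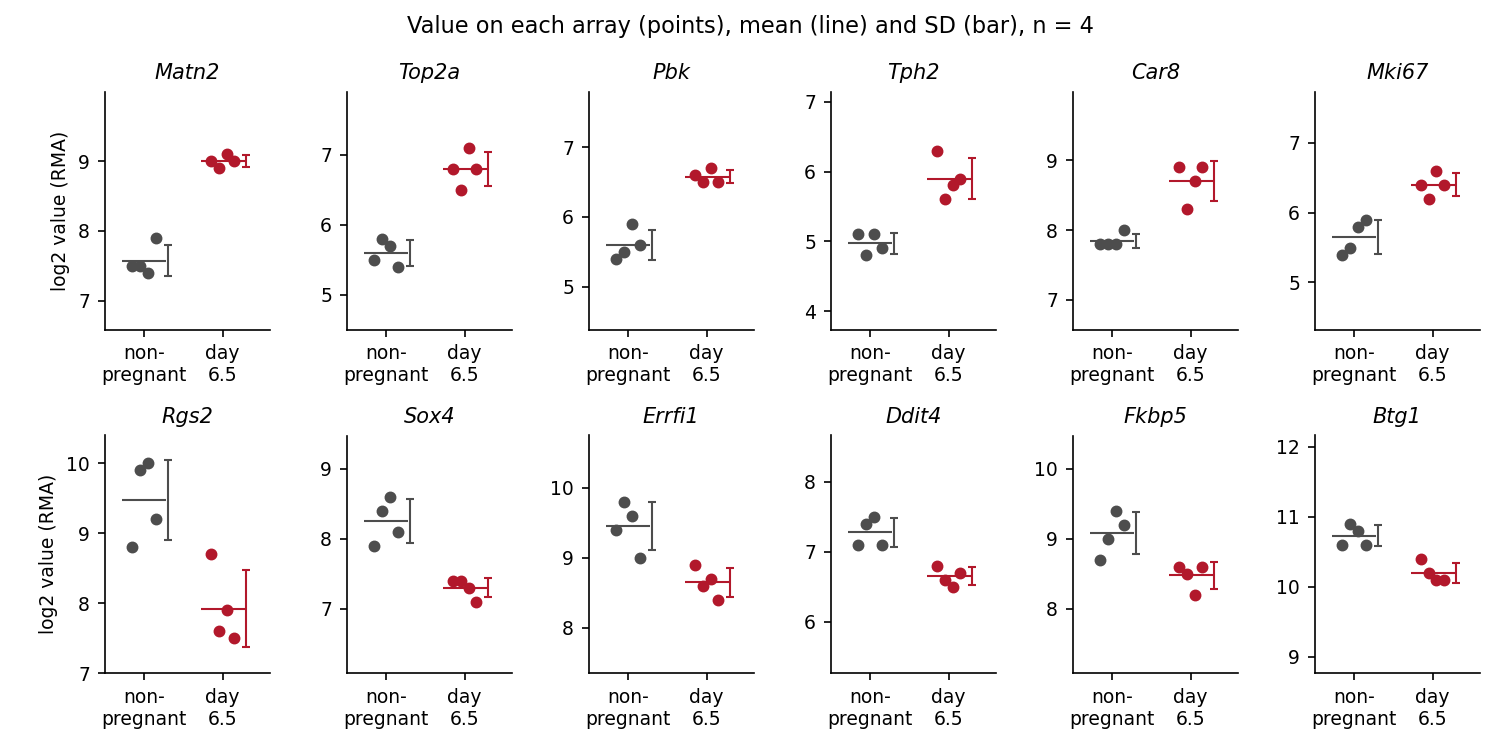
Log2 value on each array for 6 genes that rose (top row) and 6 that fell (bottom row), with the group mean as a line and the SD as a bar, 4 arrays per group; every panel spans the same range of log2 units. The day 6.5 points (red) and the non-pregnant points (grey) do not overlap in any of the 12 panels, and Rgs2 has the widest spread and the narrowest gap for its size.

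Markers of other cell types that islet preparations can hold were also read. No gene of the ductal, endothelial, stellate and fibroblast, macrophage, lymphocyte, red cell and neutrophil, or adipocyte and Schwann cell lists was called by limma. Their list medians lay between -0.08 and 0.05. At an unadjusted p under 0.05, 5 of 31 macrophage genes (16.1%) and 4 of 18 ductal genes (22.2%) were higher, against 6.91% of all genes, and none was lower.

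Set beside the neighbouring days, day 6.5 stood between the non-pregnant level and day 9.5 for most rises. These comparisons share the day 6.5 arrays, so a high or low array there moves both of a gene's differences. Genes picked as high on these arrays are also tilted toward being higher than day 3.5 and against being higher again at day 9.5. Genes picked as low are tilted the opposite way. Between day 6.5 and day 9.5, 10.5% of all genes tested rose and 6.93% fell. Of the 100 genes that had risen by day 6.5, 60 were higher again at day 9.5 and 3 were lower. Between day 3.5 (3 arrays) and day 6.5, 0.808% of all genes rose and 0.446% fell; of the 100, 21 were also higher than at day 3.5.

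Matn2 read 8.3, 7.5 and 8.1 at day 3.5, and the later steps were 1.03 to day 6.5 (adjusted p = 0.000215) and 0.90 to day 9.5 (adjusted p = 1.09e-05). Top2a read 6.7, 6.0 and 5.8 at day 3.5 and 7.7, 7.6, 7.9 and 7.7 at day 9.5. Its step from day 3.5 was 0.63 (adjusted p = 0.0589) and its step to day 9.5 was 0.93 (adjusted p = 0.00019). Top2a and Mki67 had their highest mean at day 9.5, 7.73 and 7.10, with lower means on every later day. Robo2 read 9.8, 9.7, 9.7 and 9.9 at day 9.5, a difference of -0.20 from day 6.5 that was not called (adjusted p = 0.0949).

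The genes that islet pregnancy is best known for had most of their difference still ahead. Tph1 read 8.0, 8.8, 8.7 and 8.8 at day 9.5, and its difference between days 9.5 and 6.5 was 3.35, against 0.78 between day 6.5 and non-pregnant. For Cldn8 these values were 2.80 and 0.70, and for Lrrc55 1.75 and 0.35. Against day 3.5, where it read 4.2, 4.5 and 4.2, Tph1 was higher at day 6.5 by 0.93 (adjusted p = 0.0416), and Cldn8 by 1.08 (adjusted p = 0.00827). Both of these passed limma's threshold, while the difference of either gene from the non-pregnant arrays did not. Tph2 read 5.8, 5.7 and 5.2 at day 3.5, differed from it by 0.33 at day 6.5 (adjusted p = 0.219), and rose by 1.38 to day 9.5.

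Of the 24 falls, 14 were higher at day 9.5 than at day 6.5 and none was lower, against 10.5% and 6.93% of all genes. At day 6.5, 4 of the falls were lower than at day 3.5, against 0.446% of all genes. The falls were picked as low on the same day 6.5 arrays, which by itself favours both directions. These counts and the single genes below are therefore no independent evidence of a return after day 6.5. Errfi1 read 9.1, 9.3, 9.5 and 9.6 at day 9.5, 0.73 above day 6.5 (adjusted p = 0.00217). Ddit4 read 7.1, 7.0, 7.3 and 7.3, 0.53 above (adjusted p = 0.00123). Rgs2 read 8.4, 8.4, 8.8 and 8.8, and its difference of 0.68 was not called (adjusted p = 0.0778). The cargo receptor Tmed9 read 7.8, 7.8, 7.3 and 7.4 at day 6.5, below the 8.1, 8.0, 7.9 and 7.9 of non-pregnant islets, and 8.4, 8.5, 8.5 and 8.6 at day 9.5. It thus fell by 0.40 on the log2 scale and was 0.93 higher at day 9.5. Acinar markers moved between these days too. At day 6.5, 28 of 37 were higher than at day 3.5, against 0.808% of all genes. At day 9.5, 25 were lower than at day 6.5, against 6.93% of all genes.

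**Figure D5:**
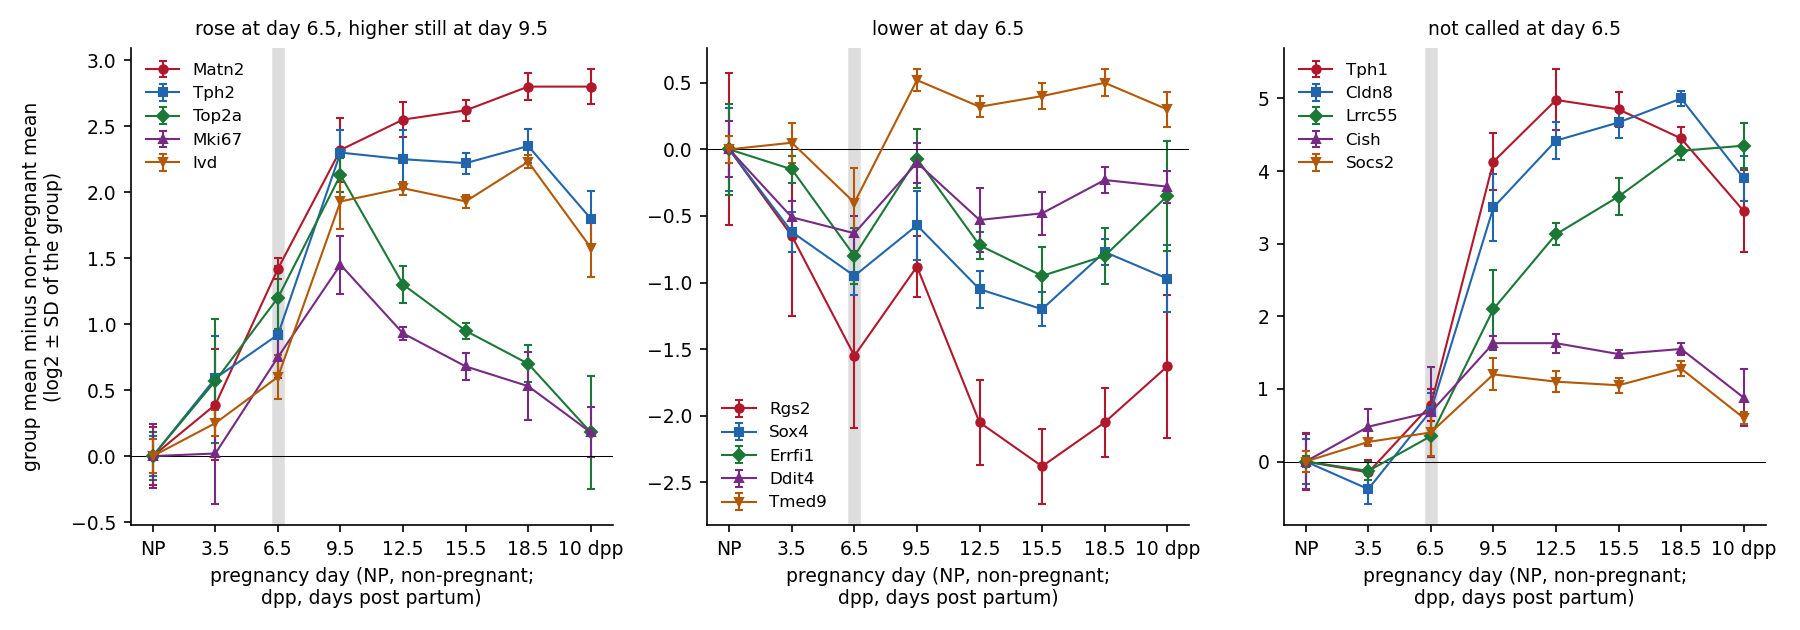
Group mean minus the non-pregnant mean, in log2 units with the SD of each group, for 15 genes from non-pregnant (NP) through the pregnancy days to 10 days post partum (dpp); the grey band marks day 6.5, and n is 4 except at day 3.5, where it is 3. The genes on the left had risen by day 6.5 and were higher at day 9.5, those in the middle were lower at day 6.5, and on the right Tph1, Cldn8 and Lrrc55 took their large step between days 6.5 and 9.5.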

How the data were processed

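Log2 values, 1 deposited column per array, were used as given. Per the submitters' processing notes the authors made them with RMA in Affymetrix Expression Console; versions and the arrays normalized together are not given in the sources used here. The values carry 1 decimal, and none is a count, so no depth applies; precision is set by how many arrays a group has. Of 35556 probe sets, 21789 have 1 gene symbol, 1621 several and 12146 none; each gene is represented by its brightest probe set on average, which gave 19938 genes, with no filter on low values. Gene positions and promoters are those of RefSeq on GRCm38.p6.

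Differences were fitted with limma 3.58.1 (lmFit, eBayes) in R 4.3.3 over the 8 groups of the 31 C57bl6/J arrays, which share 1 estimate of the spread. Tests are two-sided. The p-values were adjusted by Benjamini and Hochberg's method across the 19938 genes, and genes under 0.05 were called. Each p-value weighs a difference against the spread between arrays within groups, pooled over the 8 groups and adjusted by eBayes. Tables and figures used Python 3.11.15, numpy 2.4.6, pandas 2.3.3 and matplotlib 3.10.9. On simulated arrays of this comparison, with independent noise of each gene's own spread, the test found 100% of genes changed by 1 and 85% of those changed by 0.5 on the log2 scale, and 2.63% of its calls were unchanged genes.

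Named genes are the 20 largest rises and 10 largest falls among calls with no overlap between groups, up to 6 called members of each of 29 gene lists, and a short set of lactogen, serotonin, cycle and hormone genes named whatever their result; other called or listed genes are given as examples, picked after their values were seen. The gene lists, the groups compared and the genes were chosen with earlier results of these data known. Lists are described by counts and medians, with no test of their own. The 20 alternatives were a filter on the dimmest 25% of genes, quantile normalization, median centring, eBayes with trend and robust, array weights, all probe sets or their mean, the replicate number as a block, the acinar mean or the array SD as a covariate, the 8 arrays alone, all 39 arrays, and leaving out each of the 8 arrays.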

Additional observations from a re-analysis of the deposited data

Results flagged for a closer look

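Among the named genes, the islet markers and the list means, 192 groups of 4 arrays were searched for an array farther from the rest than Dixon's test allows at its 95% level, and 21 had one. Chance alone gives about 1 in 20 such groups, and the values move in steps of 0.1, so several of the gaps are only 1 or 2 steps wide.

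Non-pregnant replicate 1 was the lowest of its group for 5 of the bright islet genes: Gcg at 13.0, Iapp at 13.0, Sst at 12.9, Ins2 at 11.9 and Slc2a2 at 11.8. It was the highest for Edem1 at 9.4 and Rmrp at 10.9. The gap to the nearest array was 1.0 for Gcg, 0.8 for Iapp, Sst and Ins2, and 0.2 for the other 3.

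Day 6.5 replicate 4 was the lowest of its group for Cish at 8.2, Myc at 6.4, Mcm3 at 5.8 and Iapp at 13.7, and the highest for Bcl6 at 6.0. The gap was 1.1 for Cish, 1.2 for Myc and 0.6 for Mcm3 and Bcl6.

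Elsewhere, day 6.5 replicate 1 was the highest for Ins2 at 12.7 and Mcm2 at 7.4, each by 0.1, and day 6.5 replicate 2 was the lowest for Pcsk1 at 11.6. Among the non-pregnant arrays, replicate 4 was the highest for Car8 at 8.0, replicate 2 the lowest for Fmo4 at 4.9, and replicate 3 the lowest for Foxm1 at 5.2 and Nkx6-1 at 9.8. For list means, the genes normally kept low in beta cells were highest on day 6.5 replicate 2 at 6.51, and the imprinted genes were lowest on day 6.5 replicate 1 at 7.58.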

How the results depend on the processing

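Of 124 calls (100 higher, 24 lower), the array SD as a covariate gave 187 with 74 lower, and the 8 arrays alone gave 45, with 35 higher and 10 lower. Quantile normalization gave 65 lower and median centring 11 lower. Leaving out 1 array gave 48 to 221 calls, 40 to 162 higher and 7 to 59 lower. The replication list had 1 call in place of 6 with the 8 arrays alone and had 2 to 7 when 1 array was left out; the mitosis list had 14 to 23 of 24. The 8 arrays alone leave fewer arrays to estimate the spread. The cause of the changes in these counts, that fit included, was not tested. Replicate numbers did not pair the arrays: same-numbered arrays deviated with correlations of -0.147, -0.0422, -0.0532 and 0.0903. With a replicate block 116 genes were called, and no named gene changed its call. The 42 named genes that were called gave 839 values, of which 73 missed the threshold and none reversed, and 24 of the genes were called under every alternative. Of 439 values of the 22 other named genes, 10 passed the threshold and 9 reversed: with 1 array left out, Esr1 ranged from -0.03 to 0.08, Gcg from -0.10 to 0.23, Ins2 from -0.08 to 0.19 and Sst from -0.05 to 0.22, each lowest without non-pregnant replicate 1, Men1 from -0.01 to 0.07 and Ppy from -0.33 to 0.08, which was without day 6.5 replicate 4; Men1 was also -0.01 after quantile normalization. With 4 arrays a group and values in steps of 0.1, no difference under 0.25 was called, and dim genes are limited by signal over background.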

Other observations

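The other called rises hold small groups of related genes, picked after their values were seen. Of membrane transport and sensing, Slc50a1, a sugar transporter, read 10.2, 10.1, 10.2 and 10.1 at day 6.5 and 9.7, 9.8, 9.7 and 9.4 in non-pregnant islets, a rise of 0.50 ± 0.08. Slc2a13, a transporter of myo-inositol, rose by 0.53 ± 0.11, and Gabbr2, a subunit of the GABA-B receptor, by 0.43 ± 0.10, though its groups met at 8.4. Of metabolism, Gatm, the first enzyme of creatine synthesis, rose by 0.50 ± 0.09, malic enzyme Me1 by 0.35 ± 0.08, Pgk1 of glycolysis by 0.38 ± 0.08, the fatty acid desaturase Fads1 by 0.30 ± 0.07 and Aldh18a1 of proline synthesis by 0.33 ± 0.08. Nucb2, the precursor of nesfatin-1, read 10.2, 9.8, 10.5 and 10.5 against 9.7, 9.7, 9.8 and 9.8, a rise of 0.50 ± 0.12 with groups that met at 9.8. Rtp4 and Parp14, both induced by interferon, rose by 0.63 ± 0.15 and 0.45 ± 0.11; each was highest on day 6.5 replicate 4, at 7.4 and 7.7. Among the falls, Slc37a4, which carries glucose 6-phosphate into the endoplasmic reticulum, differed by -0.40 ± 0.09 and Igfbp3, which binds insulin-like growth factors, by -0.35 ± 0.08.

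In 3 places called genes lay under 50 kb apart and moved the same way. Fkbp5 and E230001N04Rik on chromosome 17, 36507 bases apart, differed by -0.60 and -0.53. Knstrn and Ivd on chromosome 2, 24749 bases apart, differed by 0.68 and 0.60, and Fads1 and Fen1 on chromosome 19, 2258 bases apart, by 0.30 and 0.40. Spc25 of the kinetochore lies 4860 bases from G6pc2, a glucose-6-phosphatase subunit of beta cells that differed by 0.08 ± 0.09. Unlike most mitosis genes that rose, Spc25 did not pass the test between days 6.5 and 9.5 (0.08, adjusted p = 0.676).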
